A study of Mus musculus with 40 samples.

Results

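Described here are 9 genes of CNTF receptor and neurotrophic signalling, of 22844 genes in the deposited table: the receptor subunits Cntfr, Lifr, Il6st and Osmr, the neurotrophin genes Ngfr, Bdnf and Ntf3, and the GDNF genes Gdnf and Gfra1. They were chosen by name with earlier results of these same libraries in view, chiefly the low level of Cntfr in TSCmKO muscle at 3 months and its rise with rapamycin there. All contrasts of Cntfr that hold a 3-month group are therefore given as a description, without a test. Whether 9-month values of Cntfr were in view too is not recorded, nor which values led to the choice of the other 8 genes. The p-values of the 9-month contrasts of Cntfr and of the other 8 genes are therefore no independent evidence. All 9 passed the filter on low counts, as did 13543 genes in all.

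RNA was measured in whole extensor digitorum longus (EDL), a fast hindlimb muscle. All mice carried floxed Tsc1 alleles (strain label Tsc1tm1Djk/J). CON mice had the genotype Tsc1fl/fl without Cre recombinase, and TSCmKO mice lacked Tsc1 in muscle fibers, where loss of this inhibitor keeps the growth-promoting kinase complex mTORC1 active. The promoter driving Cre is not named in the sources used here. Ages were 3 or 9 months. Vehicle, or rapamycin (RM), which inhibits mTORC1, was injected intraperitoneally for 3 days. The labels state 4 mg per kg, but a larger daily amount is named elsewhere in the study, so that the dose is uncertain. The 8 groups (3mCON, 3mCON+RM, 3mTSCmKO, 3mTSCmKO+RM and the same at 9 months) each held 5 mice, with 1 library per mouse.

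CNTF, a cytokine made largely by Schwann cells, binds Cntfr, a receptor subunit anchored in the membrane without a signalling domain of its own. That complex recruits Lifr and Il6st (gp130), which carry the signal to JAK kinases and STAT factors. Osmr pairs with Il6st for oncostatin M. Neurotrophins such as Bdnf and Ntf3 signal through Trk receptors and through Ngfr (p75), while Gdnf binds Gfra1, which engages the kinase Ret. Both systems are known for the support of motor neurons and of their contacts with muscle.

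Cntfr lies on chromosome 4 (41657498 to 41697089, minus strand, GRCm38) and Il6st on chromosome 13 (112464070 to 112510086, plus strand). Chromosome 15 holds Lifr (7090614 to 7197489, plus), Osmr (6813577 to 6874969, minus) and Gdnf (7810846 to 7837575, plus). Ngfr is on chromosome 11 (95568818 to 95587735, minus), Bdnf on 2 (109674700 to 109727007, plus), Gfra1 on 19 (58235604 to 58455909, minus) and Ntf3 on 6 (126101412 to 126166910, minus). GENCODE annotates all 9 as protein-coding. At most 1.23% of the 31-base words in a member's transcripts occurred in another gene (Ngfr), so that short reads could be placed.

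RefSeq (GRCm38.p6) held promoter windows for 9 of 9 genes. The windows of Cntfr and Il6st are shown because at 9 months both of these receptor subunits fell in TSCmKO and rose there with rapamycin. Each run is the 250 bases before a transcription start, 5′ to 3′ on the gene's strand, with capitals for an E-box (CANNTG) or a GC box (GGGCGG) on either strand. Of the 6 Cntfr windows the first listed is shown, at chr4:41695454-41695703, inside the gene's span and outside annotated exons. The Il6st run is at chr13:112463820-112464069, just before the annotated gene.
Cntfr: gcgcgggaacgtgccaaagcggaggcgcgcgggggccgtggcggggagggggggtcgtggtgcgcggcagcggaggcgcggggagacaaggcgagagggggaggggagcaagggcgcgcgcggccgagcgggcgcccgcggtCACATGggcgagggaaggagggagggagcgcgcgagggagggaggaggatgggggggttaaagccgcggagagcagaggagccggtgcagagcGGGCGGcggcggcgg
Il6st: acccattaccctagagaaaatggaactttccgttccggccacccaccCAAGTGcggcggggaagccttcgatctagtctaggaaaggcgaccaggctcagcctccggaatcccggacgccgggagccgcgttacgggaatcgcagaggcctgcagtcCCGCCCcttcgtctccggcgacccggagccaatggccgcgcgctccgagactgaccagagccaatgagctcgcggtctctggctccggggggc
Each run held 1 E-box and 1 GC box, which 66.2% and 32.7% of the 32851 windows of this length also held at least once. Neither held the letters TTCNNNGAA (STAT, in 7.02% of windows) or GTAAACA (FoxO, in 3.17%). A match in letters is a description of the window only. The Cntfr run was 78.4% G or C, against 66.0% for Il6st.

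Total counts were 8883870 to 35224669 per library. Tsc1 was lower in each of the 20 TSCmKO libraries (at most 35.8 CPM) than in each of the 20 CON libraries (at least 51.3), with a log2 fold change of −1.99 ± 0.17 (SE) at 3 months (adjusted p = 2.49e-11) and of −1.55 ± 0.17 for the older mice (adjusted p = 2.33e-09). Levels below are CPM (library-scaled counts, by the TMM method), as mean ± SD with n = 5. Fold changes and their SE come from edgeR's quasi-likelihood test over all 13543 genes, with Benjamini-Hochberg adjusted p and a threshold of 0.05. Mean insert size on the labels was 175 to 239 nt in libraries of younger mice and 223 to 308 nt in those of older mice, so that age and library preparation cannot be told apart.

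Cntfr was abundant in control muscle, low in TSCmKO muscle and higher on average with rapamycin in each arm. At 3 months the 3mCON libraries held 85.4, 129.7, 26.5, 63.6 and 90.8 CPM (79.2 ± 37.9). The 3mTSCmKO libraries held 4.74, 5.10, 5.40, 7.74 and 11.0 CPM (6.80 ± 2.63). The groups did not overlap, and the fitted level was 11.4-fold lower in TSCmKO (log2 fold change −3.51 ± 0.35). At 9 months 9mCON held 40.3, 62.5, 61.6, 53.7 and 60.7 CPM (55.8 ± 9.34). The 9mTSCmKO libraries held 8.06, 4.47, 3.07, 2.25 and 2.32 CPM (4.04 ± 2.42), again without overlap. That fall had a log2 fold change of −3.79 ± 0.37 and an adjusted p of 2.99e-10, and 37.9% of all genes passed the threshold in this contrast. Raw counts behind the lowest group were 39 to 155 per library, so that the fall was well above the counting floor.

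With rapamycin, 3mCON+RM reached 131.9, 249, 176, 205 and 96.5 CPM (172 ± 60.0) and 9mCON+RM reached 264, 155, 156, 115 and 125 CPM (163 ± 59.1). These are the highest group means of the series for this gene. Each 9mCON+RM library was above each 9mCON library, and the rise of 1.55 ± 0.32 on the log2 scale passed (adjusted p = 0.00128, with 11.8% of all genes passing). At 3 months the control groups overlapped, with a fitted log2 difference of 1.12 ± 0.32.

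Treated TSCmKO muscle took an intermediate position. The 3mTSCmKO+RM libraries held 27.9, 45.3, 45.9, 23.2 and 25.1 CPM (33.5 ± 11.2), each above every 3mTSCmKO library, with a fitted log2 fold change of 2.28 ± 0.34 given without a test. In 9mTSCmKO+RM the values were 18.9, 16.4, 15.2, 13.2 and 17.7 CPM (16.3 ± 2.21), each above every 9mTSCmKO library. That rise was 2.01 ± 0.36 (adjusted p = 4.46e-05, with 32.6% of all genes passing). All 5 treated 9-month TSCmKO libraries were still below every vehicle control of that age (−1.78 ± 0.33, adjusted p = 7.39e-05, 31.9% of all genes). At 3 months the same difference was −1.24 ± 0.32, given without a test, and 3mCON replicate 3 (26.5 CPM) lay within the range of the treated TSCmKO libraries.

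Among treated mice alone the genotypes did not overlap at either age. The fitted level was 5.13-fold lower in 3mTSCmKO+RM than in 3mCON+RM (log2 −2.36 ± 0.33, given without a test). At 9 months Cntfr was 10.0-fold lower (log2 −3.33 ± 0.35, adjusted p = 4.73e-09, 20.6% of all genes). The response to rapamycin in TSCmKO exceeded that in CON by 0.46 at 9 months (95% interval −0.50 to 1.42, adjusted p = 0.62), which did not pass. It ranged from 0.30 without 9mTSCmKO replicate 4 to 0.87 without 9mTSCmKO replicate 1. The corresponding difference at 3 months was 1.15 ± 0.46, given without a test. Between 3 and 9 months the log2 difference of Cntfr was −0.50 ± 0.32 in CON and −0.78 ± 0.36 in TSCmKO, both with overlapping groups. Without 3mCON replicate 2 the former was −0.25, and without 9mTSCmKO replicate 1 the latter was −1.20.

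**Figure D1:**
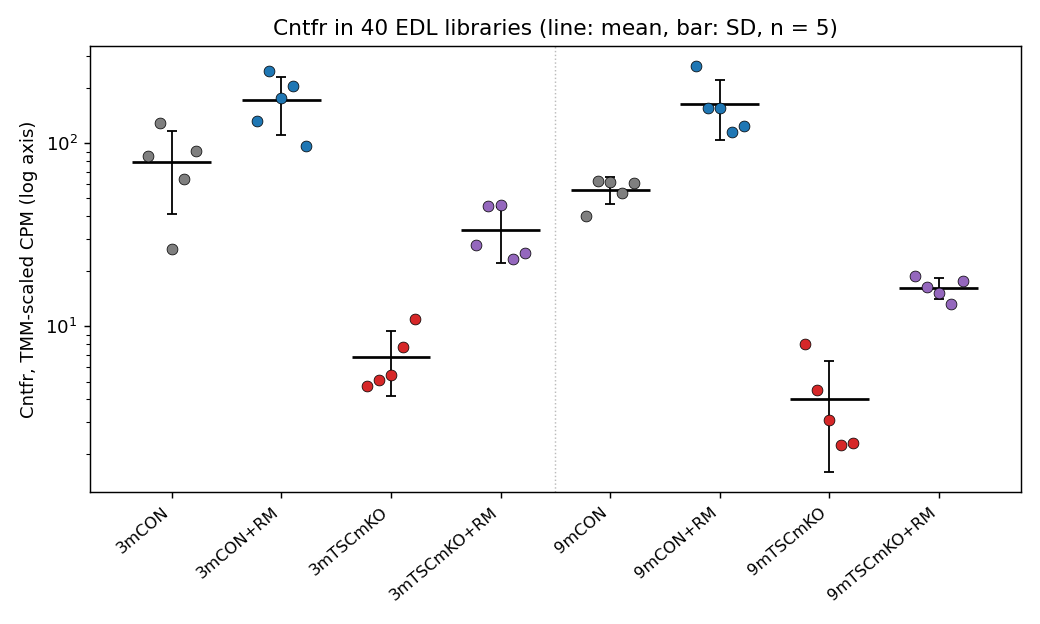
Cntfr in each of the 40 libraries, as TMM-scaled CPM on a log axis, by group. Points are libraries, lines are means and bars are SD (n = 5). The 10 vehicle TSCmKO libraries sit at 11.0 CPM or below, and treated TSCmKO libraries lie between these and nearly all controls.

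Ordered by mean, the groups ran 3mCON+RM, 9mCON+RM, 3mCON, 9mCON, 3mTSCmKO+RM, 9mTSCmKO+RM, 3mTSCmKO and 9mTSCmKO, a 42.6-fold span. Neighbours in this order overlapped in their library values, except 3mTSCmKO+RM with 9mTSCmKO+RM and 9mTSCmKO+RM with 3mTSCmKO. The muscle fiber markers, with summed CPM of 148125 to 158825 in 9mCON, held 97277 to 113341 in 9mTSCmKO (4 of 9 lower, 0 higher) and 139821 to 171744 in 9mTSCmKO+RM (5 of 9 higher and 1 lower than in 9mTSCmKO). In 9mCON+RM they held 177889 to 188099, above every 9mCON library (1 of 9 called higher, 0 lower). Of all genes, 37.9%, 32.6% and 11.8% passed in these contrasts, in that order. In whole muscle, fewer cells of a type and less RNA per cell cannot be told apart. At 3 months 0 of the 9 fiber markers passed between vehicle genotypes by edgeR (2 at an unadjusted p below 0.05, 2 by DESeq2 and 1 by limma), where the sums were 115922 to 149832 in 3mCON and 97548 to 168212 in 3mTSCmKO. With rapamycin 4 of 9 were higher and 1 lower in 3mTSCmKO+RM than in 3mTSCmKO (5 called by DESeq2 and 6 by limma), with sums of 148278 to 180086. In 3mCON+RM the sums were 145061 to 169610, and 0 of 9 were called against 3mCON by edgeR (2 at an unadjusted p below 0.05, 0 by DESeq2 and 1 by limma). The shares of all genes passing in these 3-month contrasts were 19.8%, 23.6% and 0.679%, in that order. The part of these markers in the values of Cntfr was not tested.

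Il6st, the shared signalling subunit, was lower in vehicle TSCmKO than in vehicle CON at both ages, and higher with rapamycin in TSCmKO at both ages and in CON at 9 months. Its response to rapamycin in CON at 3 months did not pass (adjusted p = 0.812), and among treated mice the genotypes did not differ past the threshold either (adjusted p = 0.527 in the younger and 0.0986 in the older mice). Values in 3mCON were 286, 299, 268, 269.9 and 288 CPM (282 ± 13.0), and those in 3mTSCmKO were 252, 258, 214, 170.5 and 197 (218 ± 37.0). The groups did not overlap, and the fall of 0.37 ± 0.12 on the log2 scale had an adjusted p of 0.0232. It no longer passed without 3mCON replicate 1 (adjusted p = 0.0555) or 2 (0.0685), without 3mTSCmKO replicate 3 (0.0517), 4 (0.112) or 5 (0.0649), with no filter (0.0614) or by limma (0.0813). At 9 months 9mCON held 193, 175, 253, 249.8 and 274 CPM (229 ± 42.5), and each 9mTSCmKO library was lower, at 163, 161, 109.6, 156 and 167 CPM (151 ± 23.5). That fall was larger and passed in every fit run (log2 −0.60 ± 0.12, adjusted p = 1.18e-04). The age difference in TSCmKO also passed (log2 −0.53 ± 0.12, adjusted p = 7.03e-04).

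In 9mTSCmKO+RM, Il6st returned to 199, 260.4, 276, 252 and 254 CPM (248 ± 28.9), each above every 9mTSCmKO library (log2 0.72 ± 0.12, adjusted p = 1.43e-05). The treated group overlapped 9mCON. In 3mTSCmKO+RM all 5 libraries, from 269.5 to 293 CPM, were above all 5 of 3mTSCmKO (log2 0.37 ± 0.12, adjusted p = 0.0189). That call was lost without 3mTSCmKO replicate 4 (adjusted p = 0.0833) or 5 (0.0542) and by limma (0.0527). In 9mCON+RM the level was 301 ± 32.7 CPM and overlapped 9mCON (log2 0.39 ± 0.12, adjusted p = 0.0252). This call was lost without 9mCON replicate 1 (adjusted p = 0.0889) or 2 (0.0852), without 9mCON+RM replicate 2 (0.0805) or 5 (0.0715), in a fit to those groups alone (0.169) or by limma (0.199). Markers of smooth muscle cells and pericytes summed to 660.3 to 971 CPM in 9mCON, 403 to 693 in 9mTSCmKO (5 of 7 lower, 0 higher) and 483 to 977 in 9mTSCmKO+RM (3 of 7 higher and 0 lower than in 9mTSCmKO). Endothelial markers summed to 311 to 437 CPM in 9mCON and 249 to 357 in 9mTSCmKO (3 of 7 lower). Of all genes, 37.9% passed for genotype at 9 months, and 23.6% and 32.6% with rapamycin in TSCmKO at 3 and 9 months. The part of these markers, and of the fiber markers, 4 and 5 of 9 of which were higher in 3mTSCmKO+RM and 9mTSCmKO+RM, in the values of Il6st was not tested.

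Lifr, the other signalling subunit of the CNTF receptor, was at 46.7 ± 6.93 CPM in 3mCON and 45.6 ± 5.46 in 3mTSCmKO, which overlapped and did not pass. In 3mTSCmKO+RM all 5 libraries (34.7 ± 5.39) were below those of 3mTSCmKO, a difference that did not pass in the fit to all groups (log2 −0.40 ± 0.25, adjusted p = 0.262) and passed in a fit to those groups alone (adjusted p = 0.0166). At 9 months 9mCON spread widely, at 23.4, 14.9, 29.6, 39.2 and 63.7 CPM (34.2 ± 18.7). The 9mTSCmKO values of 18.9, 34.0, 11.0, 16.9 and 14.5 CPM (19.1 ± 8.86) overlapped them. The fall was 0.85 ± 0.25 on the log2 scale with an adjusted p of 0.00709, and without 9mCON replicate 5 it was −0.47 with an adjusted p of 0.111. The call was also lost in a fit to those groups alone (adjusted p = 0.122) and by limma (0.0616). Between ages in TSCmKO, Lifr fell without overlap (log2 −1.26 ± 0.25, adjusted p = 1.87e-04). Treated 9-month TSCmKO muscle held 22.3 ± 5.50 CPM, which overlapped 9mTSCmKO and did not differ from it past the threshold. Against 9mCON that group did not pass for Lifr by edgeR (log2 −0.62, adjusted p = 0.054) or limma (0.289) and passed by DESeq2 (0.0414), with upper-quartile factors (0.0464) and without 9mCON replicate 1 (0.0343) or 2 (0.00784) or 9mTSCmKO+RM replicate 3 (0.0244). Without 9mCON replicate 5 it was −0.26 (adjusted p = 0.43). The same contrast at 3 months passed for Lifr in a fit to those groups alone (adjusted p = 0.0188, against 0.259 in the fit to all groups), and age in CON passed without 9mCON replicate 5 (−0.80, adjusted p = 0.0346), against −0.45 with all libraries (0.348) and −0.26 without 9mCON replicate 2 (0.71). Osmr, the oncostatin M subunit, held group means of 14.4 to 22.3 CPM and passed in 0 of the 15 contrasts by edgeR and in 0 by DESeq2 or limma, with fitted log2 fold changes of −0.38 to 0.23 in the 12 contrasts between pairs of groups. Of these, 1 had an unadjusted p below 0.05, the age difference in TSCmKO, which passed (adjusted p = 0.0489) in a fit to those groups alone.

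**Figure D2:**
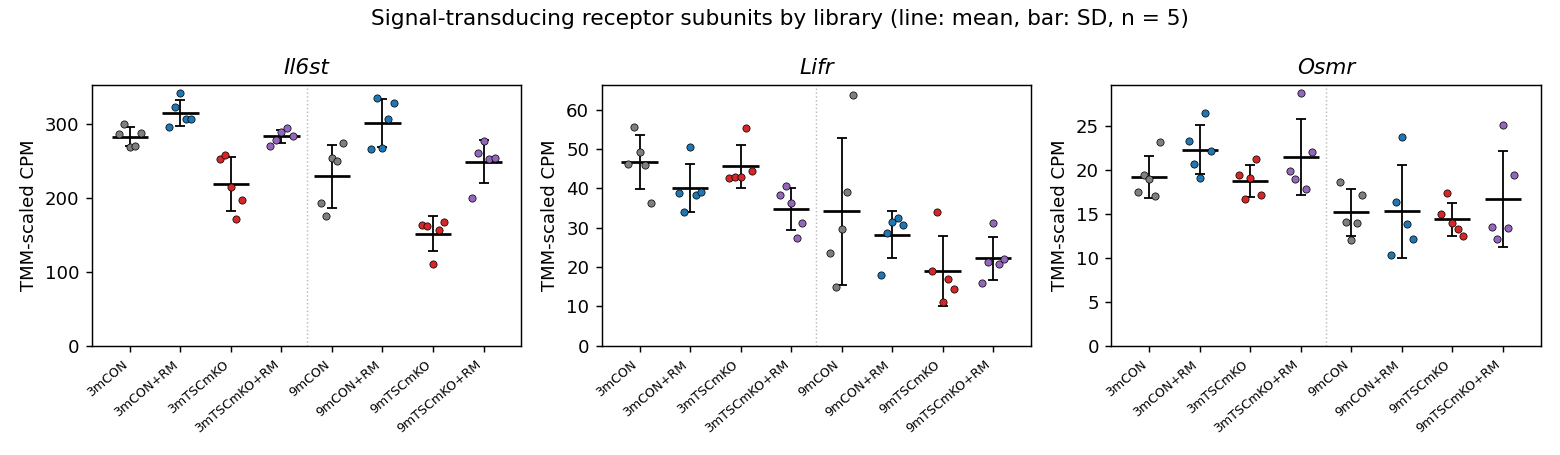
Il6st, Lifr and Osmr in each of the 40 libraries, as TMM-scaled CPM from 0, by group. Points are libraries, lines are means and bars are SD (n = 5). Il6st is lowest in 9mTSCmKO, at 109.6 to 167 CPM, while Osmr overlaps between vehicle genotypes at each age.

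On a scale per transcript length (TPM), where levels of different genes can be compared, Cntfr exceeded Lifr in 20 of 20 CON libraries. The median ratio of Cntfr to Lifr was 4.20 in 3mCON and 3.60 in 9mCON. In 3mTSCmKO the ratio was 0.254 to 0.536, below 1 in all 5 libraries, and in 9mTSCmKO it was 0.309 to 1.03, with 1 of 5 libraries above 1. With rapamycin it was above 1 in 5 of 5 libraries of both TSCmKO groups, with medians of 1.94 at 3 months and 1.67 at 9 months. The order of the ligand-binding and the signalling subunit thus differed between vehicle genotypes. The ratio of Il6st to Cntfr TPM had a median of 0.897 in 9mCON and 7.28 in 9mTSCmKO and was 3.25 in 9mTSCmKO+RM. These ratios use the Cntfr values that led to its choice and are given with no test.

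**Figure D3:**
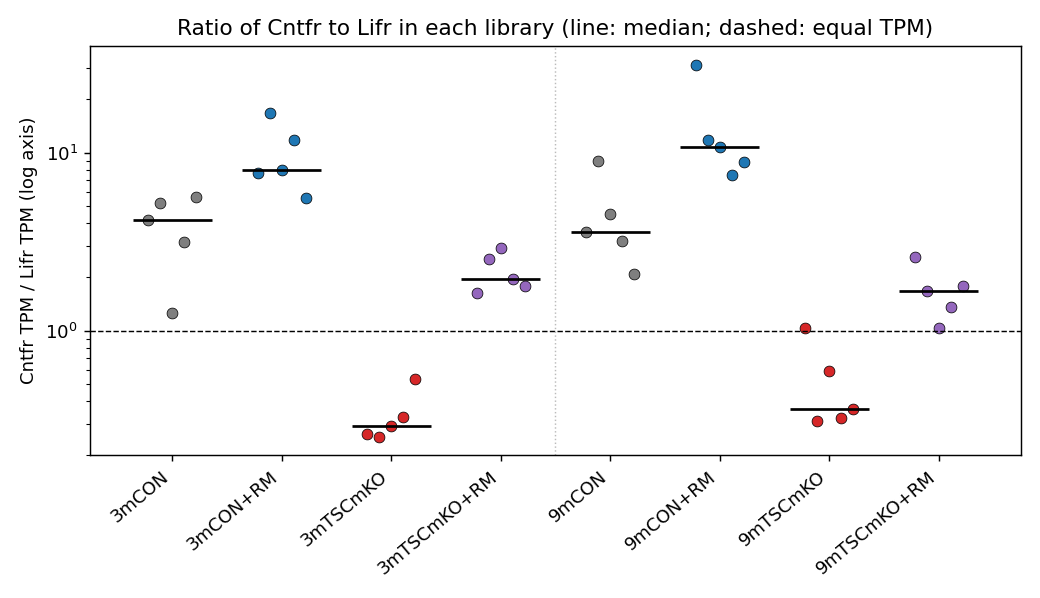
Ratio of Cntfr TPM to Lifr TPM in each of the 40 libraries on a log axis, by group. Points are libraries, lines are medians of 5 and the dashed line marks equal TPM. All 20 CON libraries are above that line, and 9 of the 10 vehicle TSCmKO libraries are below it.

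Ngfr, the p75 receptor that binds all neurotrophins, moved opposite to Cntfr between genotypes at 3 months. It was low throughout, with raw counts of 12 to 107 per library. The 3mCON libraries held 1.85, 1.09, 1.20, 2.17 and 1.52 CPM (1.57 ± 0.45). In 3mTSCmKO the values were 4.74, 4.25, 3.96, 2.11 and 3.85 CPM (3.78 ± 0.996), with the lowest inside the control range. The rise was 1.23 ± 0.30 on the log2 scale (adjusted p = 0.00261) and passed in every fit run. At 9 months the difference was 0.68 ± 0.31 (adjusted p = 0.0752). It passed without 9mCON replicate 1 (1.09, adjusted p = 0.00598) or 9mTSCmKO replicate 1 (0.79, adjusted p = 0.0485) and by limma (adjusted p = 0.0496). Without 9mTSCmKO replicate 5 it was 0.43 (adjusted p = 0.295). The genotype effects at both ages were not shown to differ, as no interaction passed.

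Ngfr in 9mTSCmKO+RM was 1.02, 0.922, 1.36, 2.21 and 1.83 CPM (1.47 ± 0.545), against 1.92, 2.82, 1.9, 2.6 and 4.46 in 9mTSCmKO (2.74 ± 1.04). The groups overlapped and the fall of 0.91 ± 0.31 passed (adjusted p = 0.0224). It did not pass without 9mTSCmKO replicate 5 (−0.65, adjusted p = 0.113) or without 9mTSCmKO+RM replicate 1 (adjusted p = 0.0516) or 2 (0.073), nor in a fit to those groups alone (0.0642). Schwann cells also carry Ngfr. The summed level of 12 Schwann cell markers was 182 to 361 CPM in 3mCON and 128 to 386 in 3mTSCmKO, with 0 of 12 called by edgeR (2 at an unadjusted p below 0.05, 0 by DESeq2 and 0 by limma), and no marker was at 0 in a whole group. At 9 months 3 of 12 were lower and 0 higher in TSCmKO by edgeR (3 called by DESeq2 and 1 by limma). In 9mTSCmKO+RM 1 was higher and 1 lower than in 9mTSCmKO (3 called by DESeq2 and 1 by limma), with sums of 98.8 to 201 CPM against 128 to 327. The shares of all genes passing in these contrasts were 19.8%, 37.9% and 32.6%, in that order. The part of these markers in the values of Ngfr was not tested.

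Bdnf, a Trk receptor ligand, was highest in treated 9-month TSCmKO muscle. The 9mTSCmKO+RM libraries held 8.61, 8.70, 8.86, 6.41 and 5.98 CPM (7.71 ± 1.40). The 9mCON+RM libraries held 2.90, 1.23, 2.32, 0.86 and 2.56 CPM (1.98 ± 0.883), all lower. The difference was 1.96 ± 0.41 on the log2 scale (adjusted p = 4.34e-04, 20.6% of all genes passing). Against 9mCON, at 2.48, 5.89, 2.68, 1.47 and 2.32 CPM (2.97 ± 1.69), treated TSCmKO was higher without overlap by 1.40 ± 0.39 (adjusted p = 0.00581). Both passed in every fit run. Vehicle 9mTSCmKO held 2.08, 4.41, 11.7, 3.81 and 3.06 CPM (5.02 ± 3.85), and its log2 differences of 0.77 from 9mCON (adjusted p = 0.121) and 0.62 to 9mTSCmKO+RM (adjusted p = 0.206) did not pass by edgeR. By limma the latter passed (adjusted p = 0.039). Without 9mTSCmKO replicate 3 it was 1.21 with an adjusted p of 0.0108, and without 9mCON replicate 2 the difference from 9mCON was 1.17 with an adjusted p of 0.0231. In the other direction, the difference from 9mCON was 0.19 without 9mTSCmKO replicate 3 (adjusted p = 0.724), and that to 9mTSCmKO+RM was 0.40 without 9mTSCmKO replicate 1 (adjusted p = 0.464).

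The rise of Bdnf with age in TSCmKO (log2 1.04 ± 0.39, adjusted p = 0.0346) rested on 9mTSCmKO replicate 3. Without that library it was 0.46 with an adjusted p of 0.358, and it also missed the threshold without 3mTSCmKO replicate 1 (adjusted p = 0.0565), 2 (0.0684), 3 (0.0551) or 4 (0.0525), with no filter (0.0613), in a fit to those groups alone (0.057) and with insert size as a term (log2 1.55, adjusted p = 0.075). At 3 months Bdnf was 3.23 ± 0.429 CPM in 3mCON and 1.57 ± 0.725 in 3mCON+RM, a log2 difference of −1.09 ± 0.43 with an adjusted p of 0.337. In a fit to those groups alone the adjusted p was 0.0278. Ntf3, the ligand of TrkC, held group means of 1.48 to 2.04 CPM at 3 months and 1.54 to 2.09 at 9 months. It passed in 0 of 15 contrasts by edgeR and in 0 by DESeq2 or limma, and 0 of the 15 had an unadjusted p below 0.05. Without 9mTSCmKO replicate 1 its fall at 9 months was −0.78 with an adjusted p of 0.00569, against −0.44 with all libraries (adjusted p = 0.141) and −0.22 without 9mCON replicate 1 (adjusted p = 0.505).

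Gdnf, a ligand known for its effect on motor nerve terminals, was higher with rapamycin in 9-month controls. The 9mCON libraries held 2.54, 2.64, 2.84, 2.24 and 1.86 CPM (2.42 ± 0.384). The 9mCON+RM libraries held 5.40, 5.96, 4.27, 2.41 and 4.79 CPM (4.57 ± 1.37), of which 1 lay within the vehicle range. The rise of 0.93 ± 0.27 had an adjusted p of 0.0175, and the call was lost without 9mCON+RM replicate 2 (adjusted p = 0.0671) and by limma (0.0514). Gdnf was also higher in 9mTSCmKO+RM (4.15 ± 1.31 CPM) than in 9mCON (log2 0.79 ± 0.27, adjusted p = 0.0209). That call was lost without 9mCON replicate 5 (adjusted p = 0.0526) or 9mTSCmKO+RM replicate 5 (0.0849) and with insert size in the fit (0.098). The age difference of Gdnf in TSCmKO passed without 3mTSCmKO replicate 3 (adjusted p = 0.048) but not with all libraries (0.0905).

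Gfra1, the GDNF-binding subunit, was lower in 3 of the 9-month groups than in 9mCON. The 9mCON libraries held 11.3, 6.94, 10.9, 12.8 and 16.7 CPM (11.7 ± 3.53). Values in 9mTSCmKO were 6.66, 6.59, 4.75, 3.64 and 5.69 CPM (5.46 ± 1.28), all lower (log2 −1.11 ± 0.26, adjusted p = 8.84e-04). In 9mTSCmKO+RM they were 4.93, 4.55, 5.66, 4.76 and 6.89 CPM (5.36 ± 0.953), also all below 9mCON (log2 −1.13 ± 0.26, adjusted p = 9.41e-04). In 9mCON+RM they were 4.86, 5.55, 9.55, 8.94 and 1.69 CPM (6.12 ± 3.21), which overlapped 9mCON (log2 −0.96 ± 0.26, adjusted p = 0.0134). The last call was lost without 9mCON replicate 5 (−0.79, adjusted p = 0.0534) and in a fit to those groups alone (adjusted p = 0.155).

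Some markers of other cells were low in these groups too. The summed level of 10 markers of fibro-adipogenic cells was 1021 to 1849 CPM in 9mCON, 372 to 1069 in 9mTSCmKO, 223 to 779 in 9mCON+RM and 467 to 846 in 9mTSCmKO+RM. Of these markers 8 of 10 were lower in 9mTSCmKO and 9 of 10 in 9mCON+RM, with 0 higher in either. The shares of all genes passing there were 37.9% and 11.8%. In 9mTSCmKO+RM 9 of the 10 markers were called against 9mCON, with 31.9% of all genes passing. Tendon markers (7 genes) summed to 89.6 to 526 CPM in 9mCON and 33.0 to 72.6 in 9mCON+RM, where 6 of 7 were lower, and macrophage markers (6 of 7 tested lower there) to 37.1 to 117 and 8.71 to 28.2 CPM. In 9mTSCmKO tendon markers summed to 60.9 to 135 CPM and macrophage markers to 31.7 to 64.0, both overlapping 9mCON. In 9mTSCmKO+RM they summed to 34.6 to 84.8 and 25.5 to 34.6 CPM. None of these marker genes was at 0 in a whole group. Their part in the 9-month values of Cntfr, Bdnf, Gdnf, Gfra1, Lifr and Il6st was not tested. At 3 months, where 0 of 10 fibro-adipogenic markers were called by edgeR between vehicle genotypes (1 at an unadjusted p below 0.05, 0 by DESeq2 and 0 by limma, with 19.8% of all genes passing), Gfra1 was 10.9 ± 2.13 CPM in 3mCON and 8.22 ± 2.20 in 3mTSCmKO and did not pass.

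**Figure D4:**
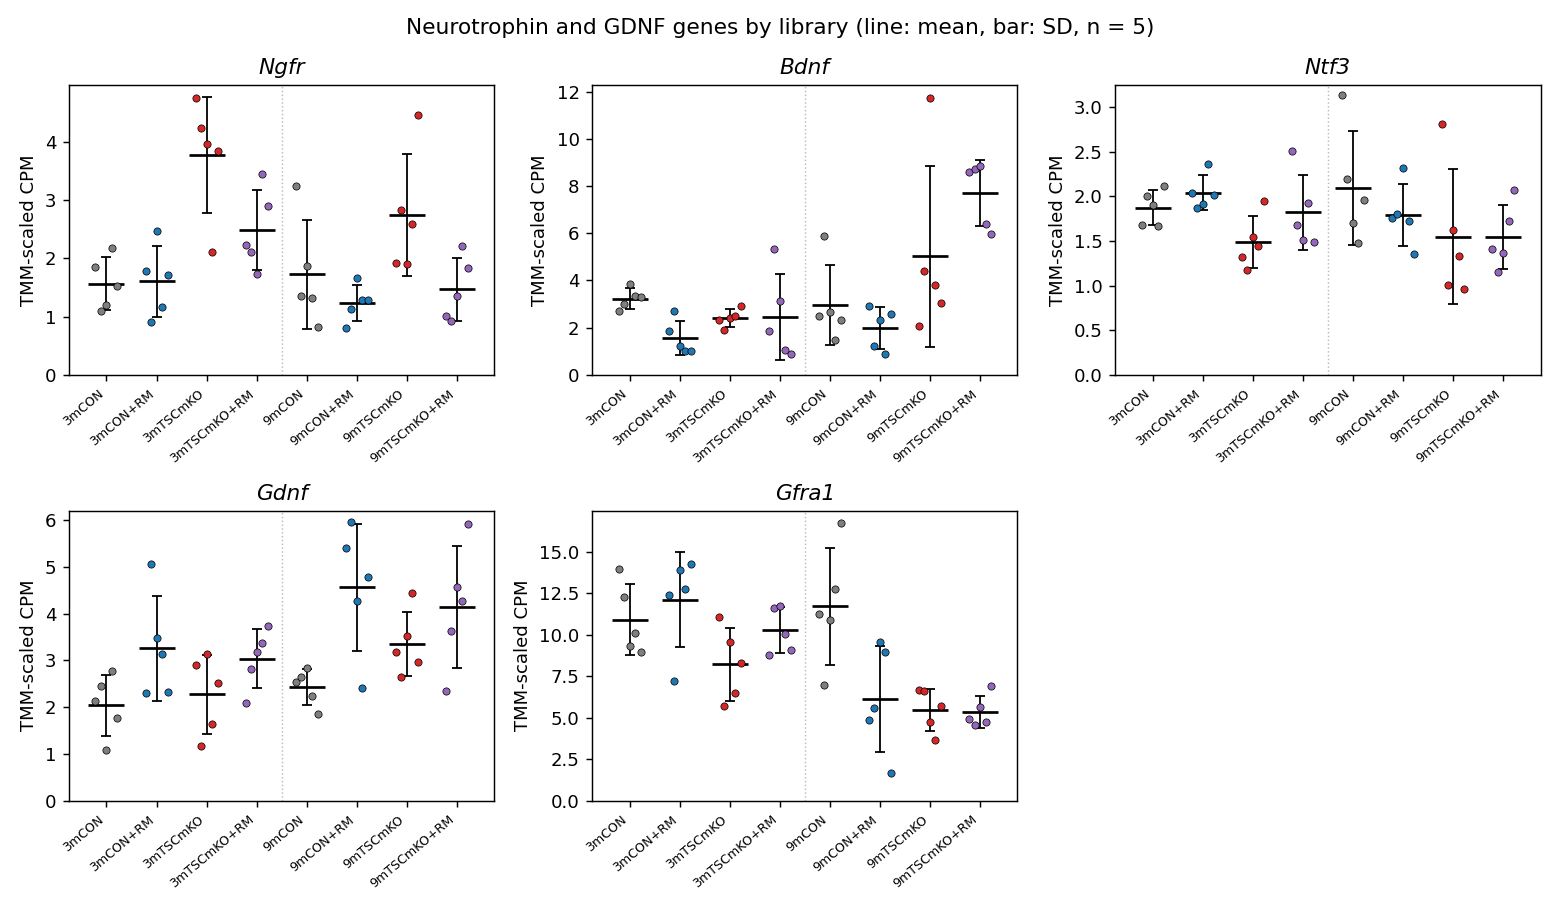
Ngfr, Bdnf, Ntf3, Gdnf and Gfra1 in each of the 40 libraries, as TMM-scaled CPM from 0, by group. Points are libraries, lines are means and bars are SD (n = 5). All 5 9mTSCmKO+RM libraries hold 5.98 CPM of Bdnf or more, and 9mTSCmKO replicate 3 stands highest at 11.7.

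Counted over the set, 2 of 8 tested members passed for genotype at 3 months (19.8% of all genes) and 4 of 9 at 9 months (37.9%). The median log2 fold change at 9 months was −0.44 over the members and −0.02 over all genes. Under rapamycin the genotype contrast gave 0 of 8 at 3 months by edgeR (1 at an unadjusted p below 0.05, 0 by DESeq2 and 0 by limma, with 10.0% of all genes passing) and 2 of 9 at 9 months (20.6%). Rapamycin in CON gave 0 of 8 at 3 months by edgeR (2 at an unadjusted p below 0.05, 0 by DESeq2 and 0 by limma, with 0.679% of all genes passing) and 4 of 9 at 9 months (11.8%). Rapamycin in TSCmKO gave 1 of 8 at 3 months (23.6%) and 3 of 9 at 9 months (32.6%). Treated TSCmKO against vehicle CON gave 0 of 8 at 3 months by edgeR (2 at an unadjusted p below 0.05, 0 by DESeq2 and 0 by limma, with 16.7% of all genes passing) and 4 of 9 at 9 months (31.9%). Age gave 0 of 8 in CON by edgeR (1 unadjusted, 0 by DESeq2 and 0 by limma, 1.02% of all genes) and 3 of 8 in TSCmKO (37.4%). With so few genes, these shares are a description. Contrasts that share a vehicle group share its libraries, so that their values are not independent.

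The genotype-by-age interaction gave 0 of 8 by edgeR (2 unadjusted, 0 by DESeq2 and 0 by limma, 4.94% of all genes). For Lifr it was −0.82 ± 0.35 (adjusted p = 0.182), and without 9mTSCmKO replicate 2 it was −1.15 with an adjusted p of 0.0303. Without 9mCON replicate 5 it was −0.46 (adjusted p = 0.494). The rapamycin-by-genotype interaction gave 0 of 8 at 3 months by edgeR (0 unadjusted, 0 by DESeq2 and 0 by limma, 3.45% of all genes). At 9 months it gave 0 of 9 by edgeR (2 unadjusted, 0 by DESeq2 and 0 by limma, 4.87% of all genes), with 1.19 ± 0.57 for Bdnf (adjusted p = 0.227). Without 9mTSCmKO replicate 3 that value was 1.77 with an adjusted p of 0.0389.

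**Figure D5:**
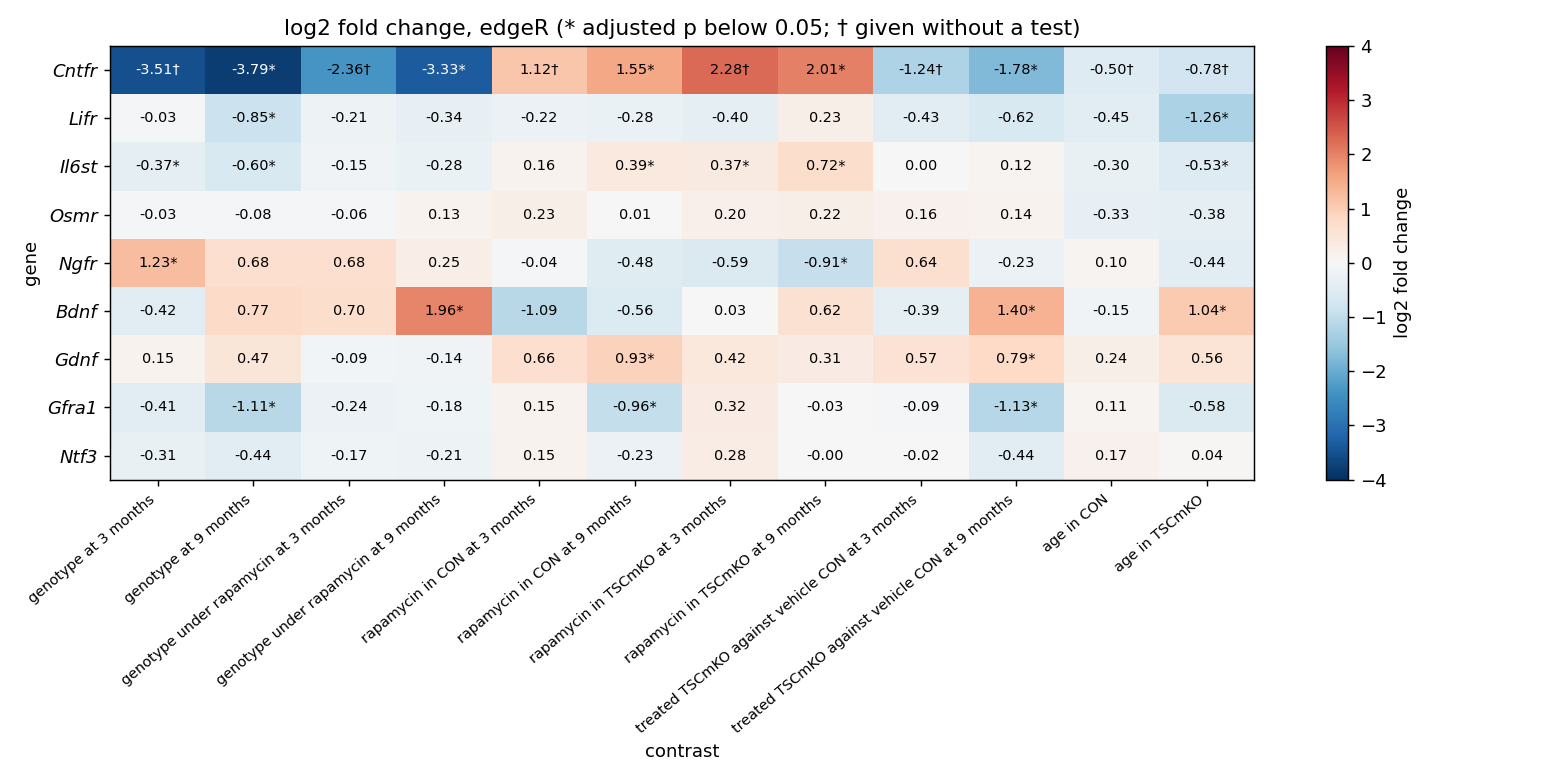
Log2 fold change (colour and number) of the 9 genes in rows for 12 contrasts between pairs of groups in columns. Stars mark an adjusted p below 0.05, and daggers mark values of Cntfr given without a test. Cntfr has the largest changes, from −3.79 to 2.28.

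Further genes of these pathways were counted from written lists. The share of all genes passing, against which each count stands, was 19.8% for genotype at 3 months, 37.9% at 9 months, 11.8% for rapamycin in CON at 9 months, and 23.6% and 32.6% for rapamycin in TSCmKO at 3 and 9 months. Of 6 tested IL-6 family ligands, 0 passed for genotype at either age by edgeR, DESeq2 or limma, with 1 at an unadjusted p below 0.05 at 3 months and 0 at 9 months. Rapamycin in TSCmKO lowered Cntf itself, the ligand, at 3 months (log2 −0.88 ± 0.26, adjusted p = 0.0123) and 9 months (−0.73 ± 0.28, adjusted p = 0.0428). Its level was low, at 2.46 ± 1.18 CPM in 3mTSCmKO and 1.37 ± 0.321 in 3mTSCmKO+RM. Of 2 other receptors tested, both fell with rapamycin in 9-month TSCmKO, Il6ra by 1.19 (adjusted p = 9.17e-04) and Il11ra1 by 0.48 (adjusted p = 0.00326). In 9mCON+RM Il11ra1 also fell, by 0.46 (adjusted p = 0.0137), a call lost in a fit to those groups alone (0.0709). The Cntf call was lost at 3 months without 3mTSCmKO replicate 4 (adjusted p = 0.136), and at 9 months without 9mTSCmKO replicate 2 or 5 or without 9mTSCmKO+RM replicate 1, 2 or 4 (adjusted p from 0.0588 to 0.138).

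Of 10 JAK-STAT transducers, 3 were higher and 0 lower for genotype at 3 months (19.8% of all genes passed), led by the phosphatase Ptpn11 (log2 0.55, adjusted p = 0.0181) and the kinase Tyk2 (0.46, adjusted p = 0.00454). By DESeq2 3 of the 10 were called and by limma 0. At 9 months (37.9% of all genes) 1 was higher, the adaptor Grb2 (0.40, adjusted p = 2.31e-05), and 2 were lower, among them Stat5b (−0.68, adjusted p = 9.82e-04). With rapamycin in TSCmKO, 2 of 10 fell at 3 months, Ptpn11 (−0.65, adjusted p = 0.00416) and the adaptor Gab1 (−0.40, adjusted p = 0.0348). At 9 months Tyk2 rose (0.34, adjusted p = 0.0276) and Grb2 fell (−0.32, adjusted p = 6.17e-04). In 9-month CON 0 of 10 passed with rapamycin by edgeR (1 at an unadjusted p below 0.05, 0 by DESeq2 and 0 by limma). Leaving out 1 library ended the call of Ptpn11 between genotypes (3mCON replicate 5, adjusted p = 0.0587), of Gab1 (3mTSCmKO replicate 1 or 2, or 3mTSCmKO+RM replicate 1, 2, 3 or 5, adjusted p from 0.0625 to 0.12) and of Tyk2 at 9 months (9mTSCmKO replicate 1, or 9mTSCmKO+RM replicate 1 or 3, adjusted p from 0.077 to 0.153).

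Among 11 tested feedback and target genes of JAK-STAT signalling, 0 were higher and 3 lower for genotype at 3 months, against 19.8% of all genes passing. Cish, a STAT5-induced inhibitor of cytokine signalling, was at 14.4 ± 13.2 CPM in 3mCON and 2.51 ± 1.47 in 3mTSCmKO (log2 −2.58 ± 0.67, adjusted p = 0.00475). The kinase gene Pim1 fell as well (−1.54, adjusted p = 4.28e-06). At 9 months (37.9% of all genes) 2 were higher, the phosphatase Ptpn2 (0.66, adjusted p = 2.14e-06) and the survival gene Mcl1 (0.33, adjusted p = 0.0452), and 2 were lower, Cish (−2.91 ± 0.67, adjusted p = 8.44e-04) and Pim1 (−0.72, adjusted p = 0.0101). With rapamycin in TSCmKO, 4 rose and 0 fell at 3 months, led by Cish (2.60, adjusted p = 0.00381) and the growth regulator Myc (1.56, adjusted p = 9.15e-05). At 9 months Cish (2.39, adjusted p = 0.00601) and Myc (1.48, adjusted p = 9.91e-05) rose and Ptpn2 fell (−0.31, adjusted p = 0.0144). The Mcl1 call was lost without 9mCON replicate 1, 3, 4 or 5 or 9mTSCmKO replicate 1, 3 or 4 (adjusted p from 0.0572 to 0.117), and that of Pim1 at 9 months without 9mCON replicate 2 (0.0594). In 9-month CON 1 of 11 passed, the immediate-early gene Fos (−2.92, adjusted p = 0.0111), which ranged from 5.01 to 302 CPM in 9mCON and from 5.33 to 16.8 in 9mCON+RM. That call rested on 9mCON replicate 2, without which the difference was 0.093 (adjusted p = 0.929). It was also lost with a replicate block (adjusted p = 0.0636), in a fit to those groups alone (0.246) and by limma (0.316). Cish varied strongly between mice, from 6.16 to 37.1 CPM in 3mCON.

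Of 19 tested genes of the neurotrophin family beyond the members, 2 were higher and 0 lower for genotype at 3 months (19.8% of all genes passed), the adaptors Sh2b1 (0.66, adjusted p = 4.74e-05) and Frs2 (0.34, adjusted p = 0.0143). At 9 months 3 were higher and 5 lower (37.9% of all genes). Ntrk2, the kinase receptor of Bdnf, was at 9.22 ± 3.77 CPM in 9mCON and 2.78 ± 0.93 in 9mTSCmKO, without overlap (−1.73 ± 0.30, adjusted p = 1.52e-05). The sorting receptor Sorcs1 also fell (−1.53, adjusted p = 0.0113), while Maged1, a p75 partner (1.01, adjusted p = 3.14e-06), and the adaptor Shc1 (0.39, adjusted p = 0.00548) rose. In 9mCON+RM Ntrk2 (−0.996, adjusted p = 0.0204) and the ligand Ntf5 (−1.05, adjusted p = 0.00394) were lower and the sorting receptor Sort1 higher (0.68, adjusted p = 0.035). Rapamycin in TSCmKO at 3 months raised 2, Sorcs2 (1.11, adjusted p = 0.00418) and Maged1 (0.50, adjusted p = 0.0163), and lowered 3, led by Sh2b1 (−0.60, adjusted p = 1.62e-04) and Frs2 (−0.41, adjusted p = 0.00285). At 9 months 2 rose, Sort1 (1.19, adjusted p = 6.91e-05) and Sorl1 (0.57, adjusted p = 0.00585), and 4 fell, led by Ntf5 (−1.09, adjusted p = 4.55e-04) and Maged1 (−0.63, adjusted p = 0.0021). Leaving out 1 library ended the call of Frs2 between genotypes (3mCON replicate 5, adjusted p = 0.0548) and of Maged1 at 3 months (3mTSCmKO or 3mTSCmKO+RM replicate 4, 0.064 and 0.0695). In 9-month CON it ended those of Ntrk2 (9mCON replicate 1 or 5, or 9mCON+RM replicate 1 or 5, adjusted p from 0.0552 to 0.0992) and of Sort1 (9mCON replicate 1 or 2, or 9mCON+RM replicate 2, 4 or 5, adjusted p from 0.057 to 0.122).

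The GDNF list also held Cdnf and Manf, which are not members of the GDNF family. Of its 10 tested genes, 0 passed for genotype at 3 months by edgeR (4 at an unadjusted p below 0.05, 1 by DESeq2 and 1 by limma). At 9 months 3 were higher and 2 lower. Ret, the kinase engaged by Gfra1, was at 6.34 ± 2.28 CPM in 9mCON, 1.94 ± 0.417 in 9mTSCmKO and 2.61 ± 1.20 in 9mCON+RM. Both falls passed, by 1.71 ± 0.28 on the log2 scale in TSCmKO (adjusted p = 7.43e-06) and by 1.30 ± 0.28 with rapamycin in CON (adjusted p = 0.00187). Gfra1 and most fibro-adipogenic markers were lower in 9mTSCmKO and 9mCON+RM too. The part of those markers in the values of Ret was not tested. Ncam1, an alternative Gdnf receptor, rose in 9mTSCmKO (1.33, adjusted p = 1.92e-07) together with the adaptor Dok5 (0.98, adjusted p = 0.00232), and Cdnf fell (−0.55, adjusted p = 0.0012). With rapamycin Ncam1 rose in TSCmKO at 3 months (0.75, adjusted p = 0.00198) and fell at 9 months (−0.63, adjusted p = 0.00556). Manf fell at both ages (−1.08, adjusted p = 2.18e-05, and −1.43, adjusted p = 1.71e-07) and in 9mCON+RM (−0.60, adjusted p = 0.0267), Dok5 fell at 3 months (−0.84, adjusted p = 0.0136) and Cdnf rose at 9 months (0.54, adjusted p = 0.00162). The Manf call in 9-month CON was lost without 9mCON replicate 1 (adjusted p = 0.0693) or 2 (0.14) or 9mCON+RM replicate 5 (0.0898), and that of Dok5 at 3 months without 3mTSCmKO replicate 4 (0.0582).

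Denervation-responsive genes, which muscle alters on loss of its nerve, were counted beside the neurotrophic members. For genotype, 2 of 16 were higher and 4 lower at 3 months, and 11 were higher and 3 lower at 9 months, with a median log2 fold change of 0.86 over the list and −0.02 over all genes. Gadd45a, a stress gene induced by denervation, rose from 37.7 ± 14.8 CPM in 9mCON to 251 ± 46.6 in 9mTSCmKO (2.74 ± 0.28, adjusted p = 4.8e-10) and was 66.1 ± 13.9 with rapamycin (−1.92, adjusted p = 8.41e-07). It also rose at 3 months (1.96, adjusted p = 7.72e-07) and fell there with rapamycin (−2.38, adjusted p = 3.19e-08). The growth factor gene Fgf7 rose at both ages, by 0.80 at 3 months (adjusted p = 0.00139) and by 2.42 in older mice (adjusted p = 7.29e-13), and fell with rapamycin at 3 months (−0.96, adjusted p = 1.35e-04). Among the falls, Fgfbp1, which binds such factors, was at 7.69 ± 1.71 CPM in 9mCON and at 0 to 8 counts per library in 9mTSCmKO (−5.64 ± 0.49, adjusted p = 1.01e-11), and the adult receptor subunit Chrne fell by 0.91 (adjusted p = 8.35e-05). At 3 months Fgfbp1 (−3.27, adjusted p = 9.91e-08) and Dach2 (−1.58, adjusted p = 0.03) fell, the latter call being lost without 3mCON replicate 3 or 3mTSCmKO replicate 1, 2, 3 or 5 (adjusted p from 0.0817 to 0.113).

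Rapamycin in TSCmKO raised 5 of the 16 at 3 months and lowered 2. The muscle regulator Myog led the rises (2.02, adjusted p = 1.77e-04), followed by Ncam1. At 9 months it raised 3, led by Fgfbp1 (2.10, adjusted p = 0.0072) and Myog (1.30, adjusted p = 0.00488), and lowered 8, Gadd45a among them. In 9-month CON 1 of 16 passed, the deacetylase gene Hdac4 (0.63, adjusted p = 0.0139). Beyond the calls given above as lost, a fit to the compared groups alone lost those of Cdnf, Shc1 and Sorcs1 between 9-month vehicle genotypes and of Ptpn2 and Sorl1 with rapamycin in 9-month TSCmKO (adjusted p from 0.0578 to 0.0981). By limma the calls of Tyk2 between 3-month vehicle genotypes, Frs2 with rapamycin in 3-month TSCmKO and Hdac4 were lost (adjusted p from 0.0778 to 0.0915). With rapamycin in TSCmKO limma called 1 JAK-STAT transducer at either age, and 3 genes of the neurotrophin family at 3 months. In 9-month CON with rapamycin limma called 1 gene of the neurotrophin family, and for genotype at 3 months it called 1.

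Over the 40 libraries, the genes most like Cntfr by Pearson correlation of log2 CPM were Afap1l1 (r = 0.93), Aqp4 (0.93), Smad3 (0.91), Clu (0.91) and Rps6ka5 (0.91), of 13542 compared. Aqp4, the water channel of fast fibers, was at 79.6 ± 21.9 CPM in 3mCON, 0.596 ± 0.456 in 3mTSCmKO and 6.92 ± 0.737 in 3mTSCmKO+RM. Smad3, a transducer of TGF-beta signals, was at 66.6 ± 9.49, 26.1 ± 4.57 and 78.9 ± 18.0 CPM in the same groups. The lowest correlations were those of Nmt2 (−0.95), Twf2 (−0.95), Mthfd2 (−0.94), Bcl2 (−0.94) and Arhgef2 (−0.93). Twf2, an actin-binding protein gene, went from 93.9 ± 11.8 CPM in 3mCON to 484 ± 35.9 in 3mTSCmKO and 151 ± 20.5 in 3mTSCmKO+RM. The libraries share 8 group means, and within groups r was lower in size, at 0.19 for Afap1l1, 0.46 for Clu and −0.53 for Nmt2. Of the other members, Il6st was nearest to Cntfr (r = 0.74, but −0.04 within groups) and Ngfr farthest (−0.63, and −0.44 within groups).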

How the data were processed

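EDL muscle of 40 mice was profiled by single-end, strand-specific poly(A) RNA sequencing. The authors trimmed reads with Cutadapt 1.9.1 and assigned them with kallisto 0.43.1 to Ensembl transcripts (GRCm38), and a read fitting several transcripts was shared among them, which can blur near-identical genes. The deposited estimated counts per gene were whole numbers, were rounded here without effect, and the deposited TPM had been scaled by the authors for transcript length and library total. Groups came from the sample titles, and 0 value columns lacked a sample.

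Genes at 1 CPM or more in at least 5 libraries were kept. Counts were modelled with edgeR 4.0.16 in R 4.3.3 (TMM factors, 1 mean per group over all 40 libraries, robust quasi-likelihood F-tests, two-sided, Benjamini-Hochberg over all kept genes, threshold 0.05), for 12 contrasts between pairs of groups and 3 interactions. SE were derived from the F-statistics. No label says that mice of a group differ in litter or cage. Total counts of 8883870 to 35224669 set the precision of low genes such as Ngfr. The fit was tested on simulated data. Alternatives were other scaling factors, no filter, DESeq2 1.42.0, limma 3.58.1 on log2(TPM + 1), fits to the compared groups alone, insert size as a term (leaving out 9mTSCmKO+RM replicate 5, which has none), a replicate block, and leaving out each library in turn.

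The 9 genes and the lists were chosen with earlier results of these data known, and contrasts of Cntfr holding a 3-month group were given without a test. The alternatives were run on the named pathway genes after the data were seen. Named genes were Tsc1, the members, the 2 largest rises and 2 largest falls past the threshold per list and contrast described (mean of at least 1 CPM), and the 5 genes highest and 5 lowest in correlation with Cntfr. Pathway lists were IL-6 family ligands and receptors, JAK-STAT transducers and targets, neurotrophin family, GDNF family (with Cdnf and Manf, which lie outside it) and denervation-responsive genes. Marker lists covered other cells of muscle. Some listed genes are not reported here. Sequences were taken from RefSeq.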

Additional observations from a re-analysis of the deposited data

Results flagged for a closer look

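In each group of 5, the gap of the highest or lowest library to its neighbour was set against the range of the group. In 7 of 72 groups it passed a critical share of 0.71, where chance gives about 1 in 20. Cntfr was high in 9mCON+RM replicate 1 (264 CPM), the same library in which Lifr was low (18.0 CPM). Lifr was also high in 3mTSCmKO replicate 4 (55.3 CPM). Il6st was low in 9mTSCmKO replicate 3 (109.6 CPM), the same library in which Bdnf was high (11.7 CPM). Bdnf was high in 9mCON replicate 2 (5.89 CPM). Gfra1 was low in 3mCON+RM replicate 2 (7.21 CPM). No cause of these values was tested.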

How the results depend on the processing

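Every 9-month call of Cntfr, and those of Il6st at 9 months between vehicle genotypes and with rapamycin in TSCmKO, of Ngfr between vehicle genotypes at 3 months, of Bdnf in treated 9-month TSCmKO muscle against either control, and of Gfra1 in 9mTSCmKO and 9mTSCmKO+RM against 9mCON was kept in each fit run. The number of members called for genotype at 3 months was 1 with no filter and 1 by limma, and 1 to 2 when a library was left out. For rapamycin in CON at 3 months it was 1 in a fit to the compared groups alone. At 9 months it was 2 in that fit and 2 by limma, and 2 to 4 when a library was left out. For rapamycin in TSCmKO at 3 months it was 2 for the compared groups alone and 0 by limma, and 0 to 1. For treated TSCmKO against vehicle CON at 3 months it was 1 for the compared groups alone. Leaving out a library gave 3 to 6 for genotype at 9 months, 2 to 4 for rapamycin in TSCmKO at 9 months, 3 to 5 for treated TSCmKO against vehicle CON at 9 months and 2 to 3 for age in TSCmKO. It gave 0 to 1 for age in CON (1 without 9mCON replicate 5), the genotype-by-age interaction (1 without 9mTSCmKO replicate 2) and the rapamycin-by-genotype interaction at 9 months (1 without 9mTSCmKO replicate 3). DESeq2 and upper-quartile factors each gave 5 for treated TSCmKO against vehicle CON at 9 months, limma 4 for rapamycin in TSCmKO at 9 months and no filter 2 for age in TSCmKO. A fit to the compared groups alone gave 3 for genotype at 9 months and 2 for rapamycin in TSCmKO at 9 months. The causes were not tested. After the data were seen, the same alternatives were run on 72 calls of pathway genes named by rule. Of these, 15 were lost without some library and 23 in some other fit, and 1 changed direction (Fos with rapamycin in 9-month CON, from −3.28 without 9mCON+RM replicate 3 to 0.093 without 9mCON replicate 2). With log2(TPM + 1), 3 of the 5 genes most like Cntfr and 2 of the 5 least like it were shared. Of 2700 fold changes compared over all members and alternatives, 87 changed sign, of which 0 were called in either fit by the tool used.

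Between mice with the same replicate number, the median r of deviations from group means was −0.0040 over 140 pairs, with 28 above 0.1. Over 560 pairs with other numbers it was −0.0031, with 111 above 0.1. These medians cannot exclude that some mice were paired. With the replicate block, 2 members were called for genotype at 3 months and 4 at 9 months, and the block changed no call of a member and 1 of a pathway gene, Fos (adjusted p = 0.0636). Counts of 10 to 210 per library for Bdnf and 12 to 107 for Ngfr limit the precision of these genes.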
